A study of Homo sapiens with 414 samples.

Results

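The libraries described here are the 11 Thalidomide libraries of a neurotoxicity screen of 414 libraries, 1 from each of days 1, 2, 3, 4, 6, 8, 10, 15, 21, 27 and 39. They were chosen by their compound label alone. The cells were H1-NPC, neural progenitors made from H1, a human embryonic stem cell line, which were expanded with FGF2, plated without it in DF3S+N2B27 medium and lysed in the well. Thalidomide, which the labels class as toxic, was present from day 0 at 100 ng/ml. The main reference was every library of the 16 compounds classed as non-toxic, among them DMSO at 0.10% and food or drug substances such as fructose, PVP and ibuprofen, compared within the same day, with 7 to 16 libraries a day. A further reference for tests was 187 libraries of the 17 other toxic compounds sampled on all 11 days, among them lead acetate, hydroxyurea and retinoic acid. Day medians, ranges and plotted points of other toxic libraries instead take in every other toxic library of the day, 18 to 28 a day. Each compound had 1 dose and at most 1 well a day, so each Thalidomide replicate is a single well of another day, and the sources do not state whether the wells came from separate cultures. The p-values rest on the spread of libraries around the means of their day, and most of these are reference libraries. They do not measure the spread between repeat Thalidomide wells of the same day. The toxic and non-toxic classes also carry different library titles, and the class and anything else those titles mark cannot be told apart.

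Thalidomide is a sedative that was withdrawn because it caused limb and other malformations. It binds cereblon, the substrate receptor of an E3 ubiquitin ligase built on DDB1 and CUL4, and redirects the ligase to proteins it would otherwise leave alone, the neosubstrates, such as the zinc finger proteins IKZF1, IKZF3 and SALL4. That action is on proteins, while the values here are mRNA. Over 39 days H1-NPC cultures pass through progenitor, neuronal and astrocytic gene programmes, and the day therefore enters every comparison as a factor.

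The values are TPM, each gene's share of a library per length, and differences are on the log2(TPM + 1) scale, printed ± SE, as Thalidomide minus the reference. TPM are printed ± SD over days, for Thalidomide over its libraries and for the non-toxic compounds over their day means. A gene rose or fell where limma's Benjamini-Hochberg adjusted p over the 15247 genes tested was under 0.05. Between 13285 and 14088 genes reached 1 TPM in a Thalidomide library, against 11861 to 14260 in non-toxic libraries. Read depth is unknown.

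The cultures carried the markers of their label. SOX2, a progenitor transcription factor, lay between 103 and 339 TPM in Thalidomide libraries, against 29.6 to 429 TPM in non-toxic libraries. TUBB3, a neuronal tubulin, lay between 1597 and 4395 TPM in Thalidomide libraries and between 1559 and 5245 TPM in non-toxic ones. GFAP, an astrocyte filament protein, ran between 0.31 and 3235 TPM in Thalidomide libraries, against 0.24 to 4211 TPM. The 4 microglial markers stayed below 1 TPM in all 11 Thalidomide libraries, TYROBP at 0 throughout. None of the 12 mesenchymal genes passed the test in any comparison with the non-toxic compounds, COL1A1 at 88.5 to 3032 TPM in Thalidomide libraries, against 16.5 to 3258 TPM in non-toxic ones.

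SNX15 was the most regular difference of the Thalidomide cultures. It encodes a sorting nexin, a phosphoinositide-binding protein of endosomal traffic. On days 1, 2, 3, 4 and 6 it measured 55.4, 43.4, 54.6, 41.8 and 43.5 TPM in Thalidomide libraries, against non-toxic means of 44.8, 40.3, 44.1, 40.9 and 38.6 TPM. On days 8, 10, 15, 21, 27 and 39 it measured 76.4, 62.7, 61.0, 49.4, 63.2 and 49.4 TPM in Thalidomide libraries, against 43.5, 46.1, 43.5, 44.9, 40.4 and 35.3 TPM. The Thalidomide library was above the non-toxic mean on 11 of 11 days and above every non-toxic library on 8. The groups overlapped on days 4, 6 and 21. Over all days SNX15 averaged 54.6 ± 10.6 TPM in Thalidomide libraries (SD, n = 11) and 42.0 ± 3.24 TPM in non-toxic ones, a rise of 0.35 ± 0.04 (limma, adjusted p = 6.02e-09).

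The rise of SNX15 was present in both windows of the time course and was larger in the later one. It was 0.18 ± 0.05 on days 1 to 6 (limma, adjusted p = 0.00935) and 0.50 ± 0.06 on days 8 to 39 (adjusted p = 5.64e-07), and the later minus the earlier difference was 0.31 ± 0.08 (adjusted p = 0.00371). On days 1 to 6 the call rested on the libraries of days 1 and 3, without either of which it was 0.15 (adjusted p = 0.113 and 0.104). Without days 15 and 21 it was 0.36 ± 0.05 (adjusted p = 1.46e-07). Leaving out any one Thalidomide library kept it between 0.31 and 0.39 with an adjusted p below the threshold. Over the days other than 15 and 21, the mean deviation of SNX15 from the non-toxic mean was 0.37 for Thalidomide, the highest of the 37 compounds with at least 7 libraries, then 0.24 for lead acetate and 0.16 for 5-fluorouracil. The 15 non-toxic compounds among them ranged between -0.14 and 0.06. SNX15 was chosen with earlier results of these libraries known, so its rank is no separate evidence. Of the 29 sorting nexins tested, SNX15 was the one that rose over all days, and the list's median was -0.07, as was that of all genes tested. The 6 nearest tested genes by RefSeq position on chromosome 11 included CDCA5, a cohesin regulator, at 0.14 ± 0.04 over all days (adjusted p = 0.0361) and 0.10 ± 0.05 without days 15 and 21 (adjusted p = 0.562). The other 5, among them SAC3D1 and ARL2, did not pass in either comparison.

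**Figure D1:**
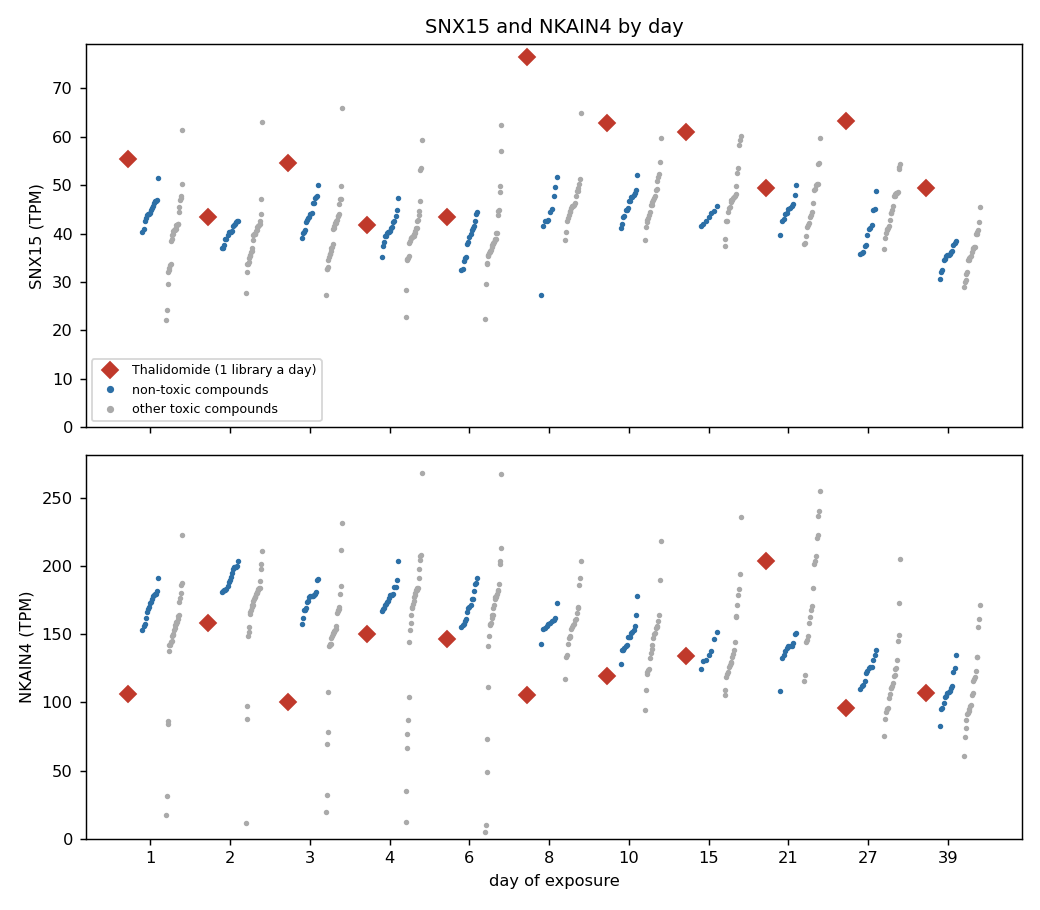
TPM of SNX15 (top) and NKAIN4 (bottom) against the day of exposure, with 1 red diamond for the Thalidomide library of each day, then blue points for the non-toxic libraries and grey points for the other toxic libraries. SNX15 in Thalidomide libraries is above every non-toxic library on 8 of 11 days, and NKAIN4 is below every non-toxic library on 8 days and above all of them on day 21.

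Against all non-toxic libraries and over all days, 238 genes rose and 1243 fell in Thalidomide cultures, which is 1.56% and 8.15% of the genes tested. The named rises included SNX15, LSP1, a leukocyte actin-binding protein, RHOG, a small GTPase, and TOMM7, a subunit of the mitochondrial import pore. TOMM7 averaged 207 ± 50.8 TPM in Thalidomide libraries and 183 ± 49.9 TPM in non-toxic ones (0.21 ± 0.07, adjusted p = 0.0323). The falls included LOC100505679, at 6.73 ± 3.72 TPM in Thalidomide libraries and 12.9 ± 4.66 TPM in non-toxic ones (-0.85 ± 0.16, adjusted p = 0.000372), and SYN3. With each library centred on its median the split became 843 rises and 986 falls. Without the Thalidomide library of day 8, 10, 15 or 21 the count of called genes was 6302, 601, 317 or 55. HIST1H3F, a replication-dependent histone H3 with near-identical copies, rose by 0.88 ± 0.17 from a low level. It lay between 0 and 3.34 TPM in Thalidomide libraries and between 0 and 4.21 TPM in non-toxic ones, and reads of such copies may be split between them.

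Days 15 and 21 carried a length trend. For each library the log2 difference to the non-toxic mean of its day was regressed on log2 transcript length. The slope, which falls below 0 where long transcripts are under-represented, was -0.21 on day 15 and -0.49 on day 21 in the Thalidomide libraries. The non-toxic libraries of those days lay between -0.01 and 0.01 and between -0.03 and 0.02, while the other toxic libraries had medians of -0.10 and -0.30. On the other 9 days the Thalidomide slope lay between -0.09 and 0.11, on day 39 at -0.07, below the lowest non-toxic library at -0.04. On day 15, 2269 genes of the Thalidomide library were above and 6653 below every non-toxic library, and on day 21 the counts were 2474 and 9013, against 690 to 3050 below on the other days. One reference library stood apart as well, that of ibuprofen on day 8, with a slope of -0.71 where the median of the non-toxic libraries of that day was 0.09. The part of RNA quality in the differences of those days was not tested.

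**Figure D2:**
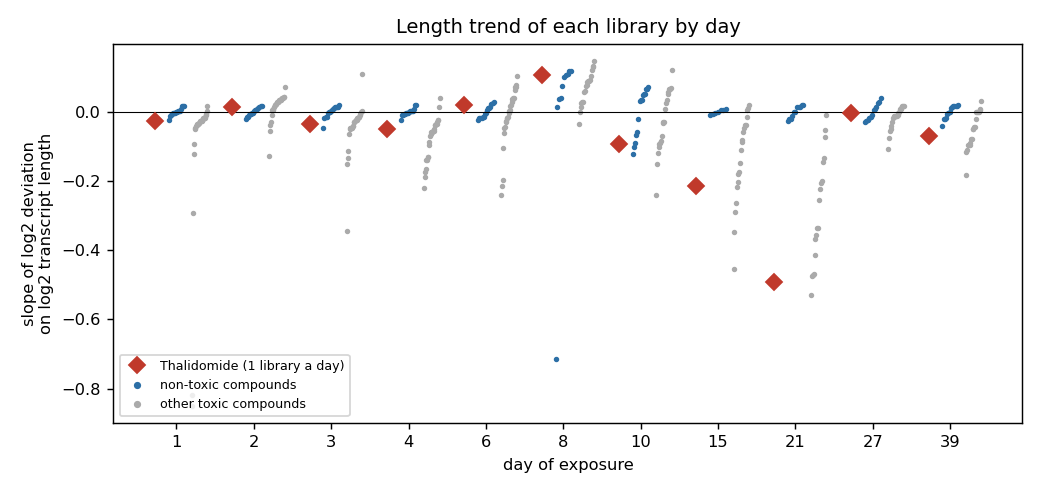
Length trend of each library, as the slope of its log2 difference to the day's non-toxic mean over log2 transcript length, against the day of exposure. Red diamonds are Thalidomide, blue points non-toxic and grey points other toxic libraries. The Thalidomide libraries of days 15 and 21 lie at -0.21 and -0.49, and the lowest blue point is the ibuprofen library of day 8 at -0.71.

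Without days 15 and 21, 11 genes rose and 21 fell in Thalidomide cultures, 0.0721% and 0.138% of the genes tested, and 1165 genes had an unadjusted p under 0.05. The fall that passed with the lowest p was that of NKAIN4, a membrane protein that interacts with the sodium and potassium pump. It averaged 121 ± 24.1 TPM in Thalidomide libraries (SD, n = 9) and 158 ± 27.4 TPM in non-toxic ones (-0.39 ± 0.04, adjusted p = 2.07e-11). On days 1, 2, 3, 4 and 6 it measured 106, 158, 100.3, 149.9 and 147 TPM in Thalidomide libraries, below the lowest non-toxic library of each day, which had 153, 181, 157, 167 and 155 TPM. On days 8, 10, 27 and 39 it measured 105, 119, 95.6 and 107 TPM in Thalidomide libraries, against non-toxic means of 158, 148.4, 123 and 108 TPM, and only day 39 lay inside the non-toxic range. On day 21 NKAIN4 was higher, at 204 TPM in the Thalidomide library, against a non-toxic mean of 138 TPM, and the other toxic libraries of that day had a median of 177 TPM. Over the 9 days Thalidomide had the lowest mean deviation of NKAIN4 among 37 compounds, -0.39, next to U0126, a MEK inhibitor, at -0.35, while the non-toxic compounds ranged between -0.11 and 0.09. NKAIN4 was picked for its fall in these same Thalidomide libraries, so its rank is no separate evidence. Thalidomide was not at the end of the order for other genes, at rank 31 of 37 from the highest for BCAN (-0.32, lowest hydroxyurea at -1.32), 34 for PITPNM3, 33 for S100A16, 32 for SYN3 (-0.37, beside the non-toxic ibuprofen at -0.40) and 6 for PPIB (0.15, highest lead acetate at 0.61).

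Other genes fell with NKAIN4. BCAN, brevican, a proteoglycan of the brain's extracellular matrix, averaged 108 ± 125.6 TPM in Thalidomide libraries and 131 ± 155 TPM in non-toxic ones (-0.33 ± 0.06, adjusted p = 0.000624) and was below the non-toxic mean on 9 of 9 days. PITPNM3, a membrane-associated phosphatidylinositol transfer protein, was below every non-toxic library on 8 of 9 days (-0.40 ± 0.09, adjusted p = 0.0151), at 34.9 TPM in the Thalidomide library of day 27, against 35.7 to 49.4 TPM in the non-toxic ones. WNT7B, a secreted Wnt ligand, fell by 0.31 ± 0.07, and ADORA1, the adenosine A1 receptor, by 0.31 ± 0.07. NTNG2, an axon-guidance netrin-G, fell by 0.30 ± 0.07, close to the threshold (adjusted p = 0.0477). S100A16, a calcium-binding protein, fell by 0.48 ± 0.10, and INPP5J, an inositol phosphatase, by 0.48 ± 0.11, each below the non-toxic mean on 8 of 9 days. PAX2, a transcription factor of the midbrain-hindbrain boundary, fell by 0.42 ± 0.11, just past the threshold (adjusted p = 0.0485). FAM181B fell by 0.46 ± 0.11 (adjusted p = 0.0467).

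The rises without days 15 and 21 were small apart from SNX15 and the low histones HIST1H3F (0.75 ± 0.19) and HIST1H4B (0.62 ± 0.14). HMGB2, a high-mobility-group protein of dividing cells, rose by 0.24 ± 0.05 (adjusted p = 0.00571). It was at 699 TPM in the Thalidomide library of day 1, against a non-toxic mean of 631 TPM, and at 113 TPM on day 39, against 85.0 TPM. HMGN2, a nucleosome-binding protein, rose by 0.16 ± 0.04, ANP32B, a histone chaperone, by 0.16 ± 0.03 and H2AFZ, a variant histone, by 0.11 ± 0.03. PPIB, a proline isomerase of the endoplasmic reticulum, averaged 511 ± 40.5 TPM in Thalidomide libraries and 461 ± 26.5 TPM in non-toxic ones (0.15 ± 0.03, adjusted p = 0.00605) and was above every non-toxic library on 6 of 9 days. RPS25 and RPL7A, ribosomal proteins, rose by 0.12 ± 0.03 and 0.08 ± 0.02. Of all genes tested, 39 (0.256%) lay outside the whole non-toxic range in 1 direction on at least 6 of the 9 days, SNX15, PPIB, ANP32B, NKAIN4, PITPNM3 and BCAN among them.

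Of the 32 genes called without days 15 and 21, 28 were also called on days 1 to 6, whose libraries are part of that comparison. The count depended on single libraries. With the ibuprofen library of day 8 left out, all 32 remained among 719 called genes, 144 higher and 575 lower in Thalidomide cultures. Without the Thalidomide library of day 1, 2, 3, 4 or 10 the count was 8, 14, 5, 14 or 9, and without that of day 8, 27 or 39 it was 966, 49 or 54. With libraries centred on their median, 31 genes rose and 35 fell, and 14 calls were shared with the uncentred comparison.

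**Figure D3:**
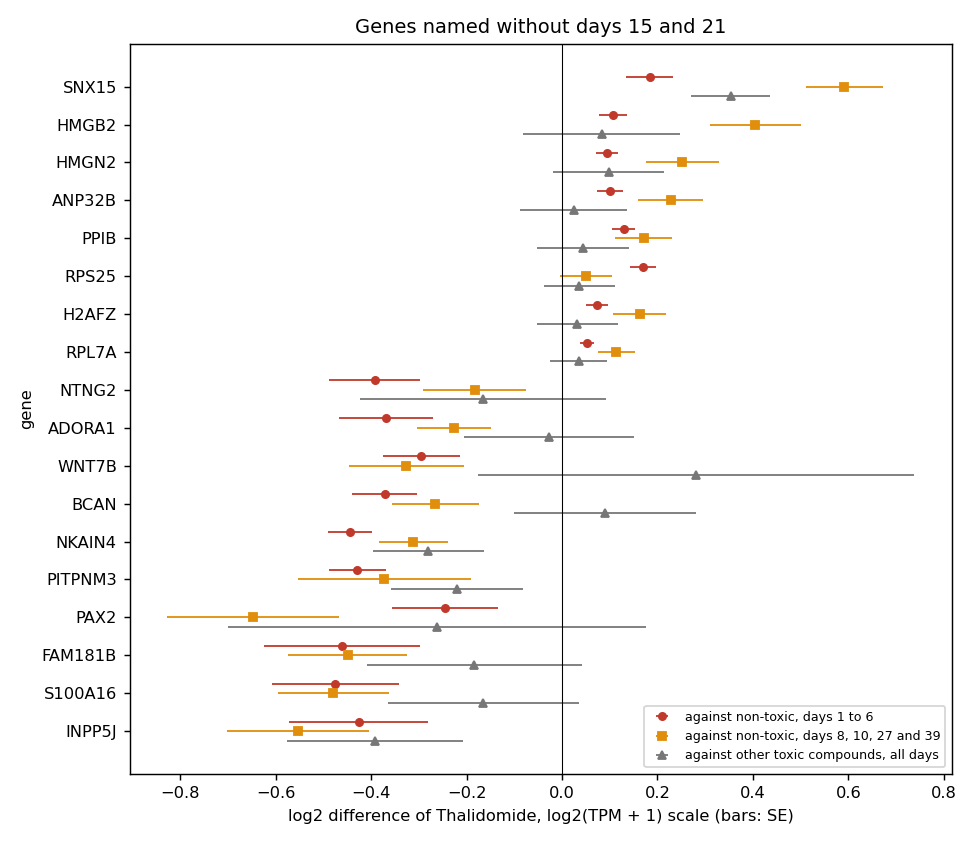
Log2 difference of Thalidomide with its SE for the 18 genes named in the comparison without days 15 and 21, against the non-toxic libraries on days 1 to 6 (red), against them on days 8, 10, 27 and 39 (orange), and against the other toxic compounds over all days (grey). The genes were chosen on the libraries of both windows together, so the sides of 0 of the red and orange points carry no separate evidence, and the grey estimate is 0.35 for SNX15, -0.28 for NKAIN4 and 0.09 for BCAN.

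On days 1 to 6, 216 genes rose and 995 fell in Thalidomide cultures, 1.42% and 6.53% of the genes tested. Progenitor genes were among the falls. Of the 12 genes of the neural progenitor list, 7 fell and 0 rose, with a median of -0.08 beside -0.02 for all genes tested. NOTCH1, the receptor that holds progenitors undifferentiated, averaged 171 ± 20.4 TPM in Thalidomide libraries (SD, n = 5) and 202 ± 28.3 TPM in non-toxic ones (-0.24 ± 0.03, adjusted p = 1.47e-06). It measured 145, 172, 188, 193 and 155 TPM on days 1, 2, 3, 4 and 6 in Thalidomide libraries, and on the first 4 of these days it was below every non-toxic library. PAX6, a transcription factor of neural progenitors, averaged 9.77 ± 2.46 TPM in Thalidomide libraries and 11.7 ± 3.23 TPM in non-toxic ones (-0.23 ± 0.05, adjusted p = 0.00318). FABP7, a fatty acid carrier of radial glia, fell by 0.17 ± 0.05, VIM, an intermediate filament, by 0.11 ± 0.02, SOX9, a glial transcription factor, by 0.10 ± 0.03, NES, nestin, by 0.08 ± 0.02 and SOX2 by 0.08 ± 0.02. HES5, a Notch target, was at 252.4 ± 52.1 TPM in Thalidomide libraries and 254 ± 43.4 TPM in non-toxic ones and did not pass (adjusted p = 0.885). The summed level of 6 progenitor markers had a lowest, median and highest value of 3591, 4389 and 5138 TPM in Thalidomide libraries, against 3502, 4905 and 5728 TPM in non-toxic ones, and the groups overlap. In such bulk samples fewer cells of a type and less RNA per cell cannot be told apart.

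The counts of other lists are to be read beside the 6.53% of all genes that fell on these days. Of 13 retinoic acid targets 4 fell and 0 rose, with a median of -0.11, and 2 fell without the Thalidomide library of day 1, 2 or 3. They were CYP26B1 (-0.35 ± 0.07) and CYP26C1 (-0.26 ± 0.07), which degrade retinoic acid, RARA (-0.20 ± 0.05), one of its receptors, and MEIS1 (-0.11 ± 0.03), a homeobox factor. Of 13 neurogenic factors 2 fell, among them DLL1, a Notch ligand, by 0.12 ± 0.03, and without the library of day 1, 3, 4 or 6 the count was 0, 0, 1 or 3. Of 14 neuronal genes 2 fell, TUBB3 by 0.13 ± 0.03 and NCAM1, an adhesion molecule, by 0.08 ± 0.02, and the count was 1, 0, 1 or 5 without the library of day 1, 3, 4 or 6 and 0 with centring. TUBB3 rose on days 8 to 39 (0.18 ± 0.05, adjusted p = 0.013), and its later minus earlier difference passed (0.30 ± 0.05, adjusted p = 3.02e-05). Of 11 astrocyte genes 2 fell and 0 rose, with a median of -0.01 beside -0.02 for all genes tested. Of the 11 differences 5 lay above 0 and 6 below. The falls were SLC1A3, a glutamate transporter (-0.15 ± 0.03), and FGFR3, a growth factor receptor (-0.16 ± 0.04). The largest falls by size were at low levels: HCRT, the orexin precursor, lay between 0 and 0.89 TPM in Thalidomide libraries, against 0 to 4.88 TPM in non-toxic ones (-0.94 ± 0.27), and GSX1, a homeobox factor, between 0 and 1.66 TPM, against 0 to 8.78 TPM (-0.86 ± 0.26).

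Ribosomal protein genes and small mitochondrial subunits, whose transcripts are short, were among the rises of days 1 to 6. Of 20 ribosomal protein genes 14 rose and 0 fell, with a median of 0.10, and of 14 small subunits of oxidative phosphorylation 8 rose and 0 fell, with a median of 0.12. Of all genes tested 1.42% rose on these days, and their median was -0.02. RPS29 was at 2256, 2408, 2133, 2169 and 1848 TPM on days 1, 2, 3, 4 and 6 in Thalidomide libraries, against non-toxic means of 1823, 1962, 1875, 1787 and 1934 TPM (0.20 ± 0.04, adjusted p = 5.12e-05), above all of them on the first 4 days and inside their range on day 6. ATP5E, a subunit of the ATP synthase, rose by 0.19 ± 0.04 and TOMM7 by 0.33 ± 0.06. The length trend of the Thalidomide libraries of days 1 and 4 was -0.03 and -0.05, below the lowest non-toxic slope of each of those days, that of day 3 was -0.03, inside the non-toxic range, and that of days 2 and 6 was 0.01 and 0.02. With the length trend as a covariate the counts were 13 ribosomal genes, 6 small subunits and, among falls, 7 progenitor genes. Among heat shock genes HSPB1, a small heat shock protein, fell by 0.31 ± 0.07, while HSP90AA1 rose by 0.11 ± 0.02 and HSPE1 by 0.12 ± 0.04. By size the named rises included HIST1H3F (1.11 ± 0.27), TSSK4, a testis kinase, at 8.20 ± 2.43 TPM in Thalidomide libraries and 5.29 ± 0.635 TPM in non-toxic ones, and SPHK1, sphingosine kinase 1, at 3.50 ± 1.25 TPM in Thalidomide libraries and 2.33 ± 0.765 TPM in non-toxic ones.

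The counts of days 1 to 6 moved with single libraries. Without the Thalidomide library of day 1, 3, 4 or 6, 600, 520, 662 or 1951 genes were called, and with any one left out 3 to 7 progenitor genes fell and 10 to 15 ribosomal genes rose. Without day 3 or 4, 3 or 4 progenitor genes fell, and without day 1, 3 or 4, 3, 5 or 4 small OXPHOS subunits rose. With libraries centred on their median 349 genes rose and 519 fell, 4 progenitor genes fell and 15 ribosomal genes rose. On the same days NOTCH1 differed from the other toxic compounds by -0.01 ± 0.18, PAX6 by 0.11 ± 0.17, RPS29 by 0.06 ± 0.14 and CYP26B1 by -0.20 ± 0.39, and errors of this size do not show that the levels were alike. NKAIN4 differed from them by -0.38 ± 0.08 and SNX15 by 0.27 ± 0.10, neither past the threshold (adjusted p = 0.281 and 1).

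**Figure D4:**
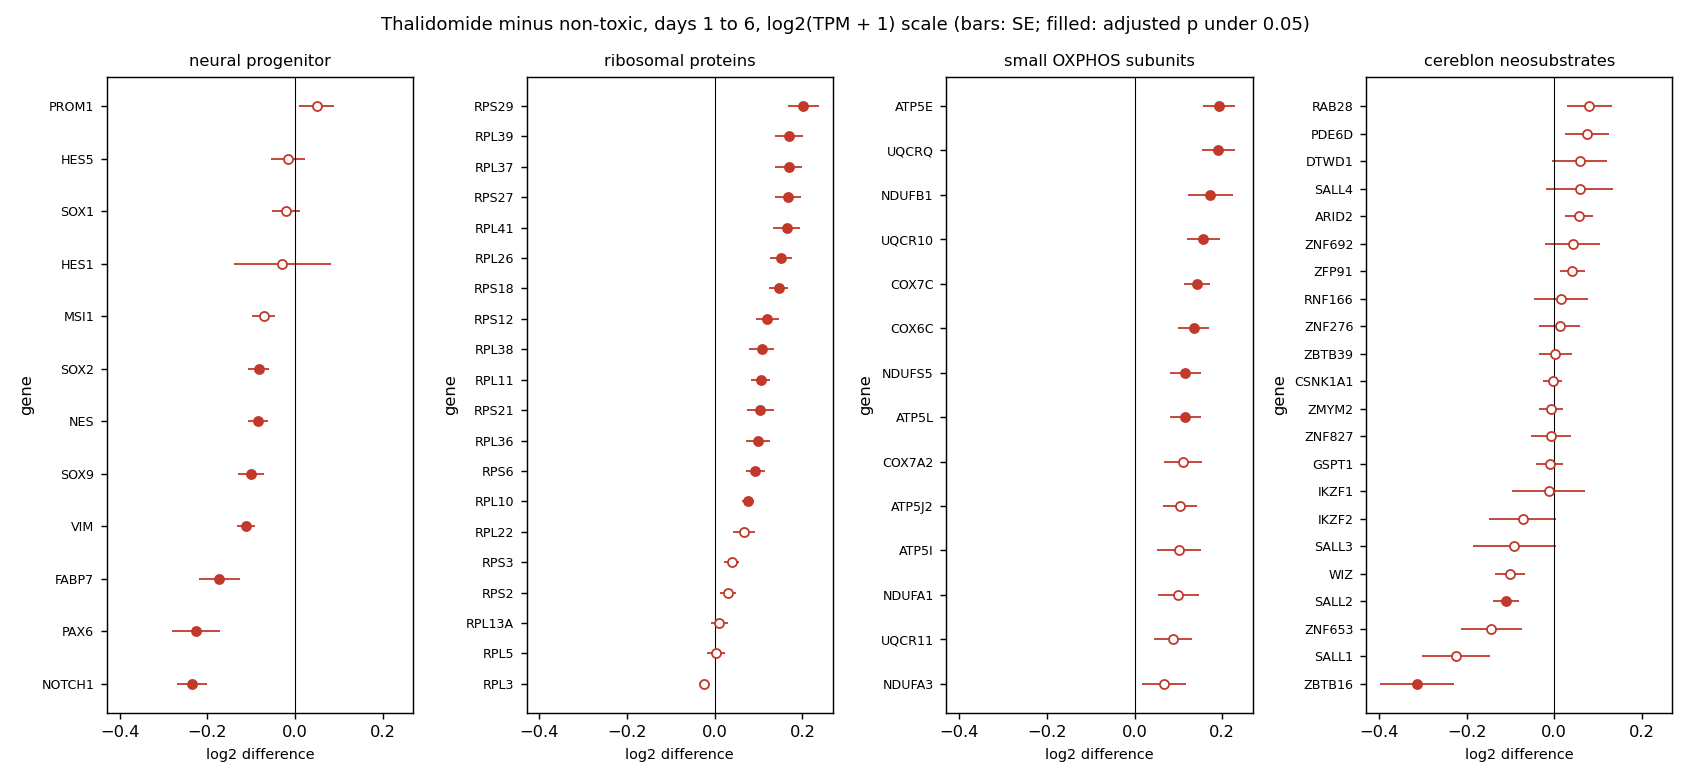
Log2 difference of Thalidomide from the non-toxic libraries on days 1 to 6 with its SE, for each tested gene of 4 lists, filled where the adjusted p was under 0.05. In the neural progenitor panel 7 of 12 genes are filled and below 0, in the ribosomal panel 14 of 20 and in the small OXPHOS panel 8 of 14 are filled and above 0, and in the cereblon neosubstrate panel 2 of 22 are filled, both below 0.

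On days 8 to 39, 344 genes rose and 1091 fell, 2.26% and 7.16% of the genes tested, and the median of all genes was -0.11. SYN3, synapsin III, a phosphoprotein of synaptic vesicles, was among the largest falls. It measured 11.8, 9.87, 14.8, 12.5, 40.3 and 43.3 TPM on days 8, 10, 15, 21, 27 and 39 in Thalidomide libraries, against non-toxic means of 15.7, 30.4, 83.5, 67.2, 46.4 and 48.5 TPM. The level thus stayed under 15 TPM until day 21 in Thalidomide libraries. It was below every non-toxic library on days 10, 15 and 21 and inside their range on days 8, 27 and 39. The fall was 1.10 ± 0.26 on days 8 to 39 (adjusted p = 0.00711) and 0.73 ± 0.15 over all days (adjusted p = 0.0013), and on days 1 to 6 the difference of -0.29 ± 0.11 did not pass (adjusted p = 0.0815). Without days 15 and 21 the difference over the 9 days was -0.38 ± 0.16 and did not pass either (adjusted p = 0.473). The other toxic libraries were low on the same days, with SYN3 medians of 30.4 TPM on day 15 and 13.5 TPM on day 21. TIMP3, a metalloproteinase inhibitor whose gene lies within SYN3, did not pass (0.06 ± 0.08 over all days).

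**Figure D5:**
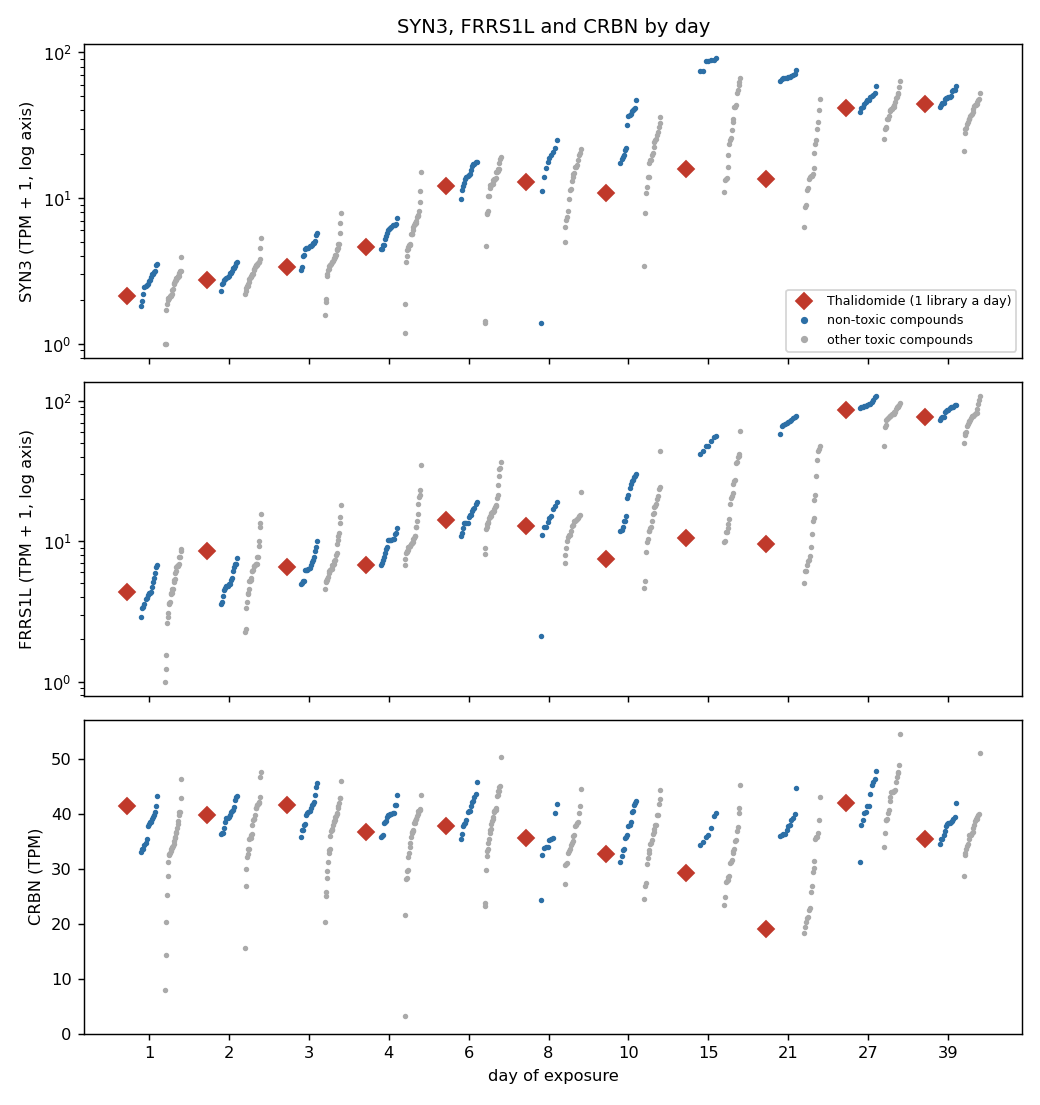
TPM + 1 of SYN3 and FRRS1L on log axes and TPM of CRBN on a linear axis against the day of exposure, with a red diamond for Thalidomide, blue points for non-toxic and grey points for other toxic libraries. SYN3 in Thalidomide libraries lies below all non-toxic libraries on days 10, 15 and 21, and the grey points spread down to it on those days, while CRBN in Thalidomide libraries is at 19.1 TPM on day 21.

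FRRS1L, an accessory protein of AMPA receptors, was at 6.52, 9.46 and 8.59 TPM on days 10, 15 and 21 in Thalidomide libraries, against non-toxic means of 19.8, 48.2 and 69.3 TPM, and at 76.3 TPM on day 39, against 84.0 TPM (-1.10 ± 0.23, adjusted p = 0.00336). IGSF9B, a synaptic adhesion protein, fell by 0.96 ± 0.25, RAB30, a Golgi GTPase, by 0.98 ± 0.23, and PPM1L, a protein phosphatase, by 0.98 ± 0.27. RGPD8 (-1.74 ± 0.43) and GTF2H2C (-1.27 ± 0.43) have near-identical copies in the genome, and their values are uncertain. Of 9 GABA genes 4 fell and 0 rose, with a median of -0.25, beside 7.16% of all genes that fell. The count was 7, 1, 1, 0 or 2 without the Thalidomide library of day 8, 10, 15, 21 or 39. They included GAD1 (-0.52 ± 0.10) and GAD2 (-0.25 ± 0.07), which make GABA, and GABRA2 (-0.59 ± 0.19), a receptor subunit. GAD1 was at 100.2 and 84.3 TPM on days 15 and 21 in Thalidomide libraries, against non-toxic means of 151 and 215 TPM, and at 236 and 332 TPM on days 27 and 39, against 279 and 372 TPM. Of 13 synaptic vesicle genes SYN3 and PCLO, a presynaptic scaffold (-0.62 ± 0.19), fell while SYP (0.13 ± 0.04) and VAMP2 (0.18 ± 0.05), membrane proteins of the vesicle, rose, and none of the 13 passed without the library of day 15 or 21. Of all genes tested, 7.16% fell and 2.26% rose on days 8 to 39.

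KIAA0408 (2.45 ± 0.50, adjusted p = 0.00319) and TEX101 (adjusted p = 0.0146) rose on days 8 to 39. KIAA0408 was at 6.78 TPM on day 8 and at 41.8, 43.8 and 31.1 TPM on days 10, 15 and 21 in Thalidomide libraries, against non-toxic means of 4.10, 6.52, 0.49 and 0.43 TPM, and it was at 0 and 0.73 TPM on days 27 and 39 in Thalidomide libraries. The other toxic libraries had KIAA0408 medians of 14.8, 13.7 and 34.0 TPM on days 10, 15 and 21. TEX101 was at 214, 199.6 and 258 TPM on days 10, 15 and 21 in Thalidomide libraries, against non-toxic means of 57.7, 55.8 and 53.8 TPM, and the other toxic medians were 119.5, 132 and 186 TPM. IFITM3, an interferon-induced membrane protein, averaged 545 ± 259 TPM in Thalidomide libraries (SD, n = 6) and 385 ± 146 TPM in non-toxic ones (0.45 ± 0.11, adjusted p = 0.0112), above the non-toxic mean on 6 of 6 days. NEUROG1, a neurogenic transcription factor, averaged 3.52 ± 1.98 TPM in Thalidomide libraries and 2.05 ± 1.05 TPM in non-toxic ones (0.56 ± 0.17).

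Without days 15 and 21, days 8 to 39 left 1 called gene, SNX15, 0.00656% of those tested, at 62.9 ± 11.03 TPM in Thalidomide libraries (SD, n = 4) and 41.3 ± 4.65 TPM in non-toxic ones (0.59 ± 0.08, adjusted p = 1.79e-05), above every non-toxic library on 4 of 4 days. In that comparison 568 genes had an unadjusted p under 0.05, and leaving out the ibuprofen library of day 8 raised the count to 23. The next lowest p-values included TRAF3IP2, a signalling adaptor (-0.42 ± 0.09), HMGB2 (0.41 ± 0.10), NKAIN4 (-0.31 ± 0.07), S100A16 (-0.48 ± 0.12) and PTGDS, prostaglandin D synthase (-0.58 ± 0.15), none past the threshold. With all days 8 to 39, the count was 7680, 417, 32 or 3 without the Thalidomide library of day 8, 10, 15 or 21. It was 6745 without the ibuprofen library of day 8, and centring gave 1188 rises and 1385 falls.

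The difference between days 8 to 39 and days 1 to 6 was itself tested, and 553 genes had a higher and 950 a lower Thalidomide difference in the later window, 3.63% and 6.23% of the genes tested. The 2 windows share no library. Of the 216 genes that rose early and the 344 that rose late, 23 were the same. They were 10.6% of the early and 6.69% of the late rises, beside the 2.26% and 1.42% of all genes that rose late and early. Of 995 early and 1091 late falls 77 were the same, 7.74% and 7.06%, near the 7.16% and 6.53% of all genes that fell late and early. A further 51 genes fell early and rose late, 5.13% of the early falls and 14.8% of the late rises. Beside these shares, 2.26% of all genes rose late and 6.53% fell early. Another 6 genes rose early and fell late, 2.78% of the early rises and 0.55% of the late falls, where 7.16% of all genes fell late and 1.42% rose early. For NKAIN4 and BCAN the later difference was nearer 0, by 0.32 ± 0.08 and 0.35 ± 0.10, with days 15 and 21 included. The count moved between 115, without the Thalidomide library of day 21, and 6655, without that of day 8. It was 449 without day 15 and 2637 without day 27, and 791, 755, 749, 771 or 907 without day 1, 2, 3, 4 or 6. Centring gave 1268 higher and 1256 lower, and leaving out the ibuprofen library of day 8 gave 5282 in all.

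CRBN, cereblon, the target of Thalidomide, had a lowest, median and highest value of 19.1, 36.8 and 42.0 TPM in Thalidomide libraries, against 24.3, 38.9 and 47.8 TPM in non-toxic ones. It was inside the non-toxic range on 9 of 11 days and below it on day 15, at 29.4 TPM against a lowest non-toxic value of 34.3 TPM, and on day 21, at 19.1 TPM against 36.1 TPM. The other toxic libraries had CRBN medians of 32.3 and 28.2 TPM on those days. CRBN fell on days 8 to 39 (-0.25 ± 0.07, adjusted p = 0.0277), not over all days (-0.13 ± 0.05, adjusted p = 0.0531), and without days 15 and 21 the difference was -0.02 ± 0.04. Of the 8 ligase genes, DDB1, the adaptor, fell on days 1 to 6 (-0.07 ± 0.02) and COPS6, a subunit of the signalosome that regulates the ligase, rose over all days (0.09 ± 0.03, adjusted p = 0.0492). Of all genes tested, 6.53% fell on days 1 to 6 and 1.56% rose over all days.

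Of the 24 cereblon neosubstrates listed, 22 could be tested, and IKZF3 and TP63 were too low. On days 1 to 6, 2 fell and 0 rose with a median of -0.01, where 6.53% of all genes fell and their median was -0.02. On days 8 to 39, 2 fell with a median of -0.17, where 7.16% of all genes fell and their median was -0.11. Without days 15 and 21 none passed, with a median of -0.02 beside -0.02 for all genes tested. ZBTB16, a zinc finger repressor of progenitors, averaged 8.32 ± 1.31 TPM in Thalidomide libraries and 10.6 ± 1.57 TPM in non-toxic ones on days 1 to 6 (-0.31 ± 0.08, adjusted p = 0.0107) and was below the non-toxic mean on 5 of 5 days. SALL2, a zinc finger protein, fell on the same days by 0.11 ± 0.03. SALL4, the neosubstrate linked to limb malformation, lay between 0.99 and 21.2 TPM in Thalidomide libraries, against 0.30 to 24.02 TPM in non-toxic ones, and did not pass over all days (-0.11 ± 0.08, adjusted p = 0.337). IKZF1 stayed between 0.07 and 1.47 TPM in Thalidomide libraries, against 0 to 1.39 TPM. Without the ibuprofen library of day 8, 12 of the 22 fell over all days, where 5031 of the 15247 genes tested fell, and 2 fell without days 15 and 21, where 575 did. Of the 8 native partners of cereblon KCNMA1, a potassium channel, fell over all days (-0.31 ± 0.08), where 8.15% of all genes fell. None of the 8 passed on days 1 to 6 or without days 15 and 21.

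Other lists followed reported actions of Thalidomide and general stress, and their counts stand beside the 6.53% of all genes that fell on days 1 to 6 and the 7.16% that fell on days 8 to 39. Of 13 angiogenesis genes 3 fell on days 1 to 6, VEGFB by 0.24 ± 0.05, NRP1, a co-receptor, by 0.16 ± 0.04 and ANGPT1 by 0.27 ± 0.08, with a median of -0.06, and 1 fell without the Thalidomide library of day 1 or 4. VEGFA fell on days 8 to 39 (-0.72 ± 0.22), with a lowest, median and highest value of 3.79, 8.89 and 352 TPM in Thalidomide libraries, against 2.08, 43.5 and 335 TPM in non-toxic ones. None of the 13 passed on days 8 to 39 without the Thalidomide library of day 15 or 21. None of the 10 TNF and NF-kB genes and none of the 12 limb and FGF signalling genes passed over all days, in either window or without days 15 and 21, with medians of -0.04 and -0.08 over all days beside -0.07 for all genes tested. The later minus earlier difference of WNT5A, a Wnt ligand of limb outgrowth, passed (-0.41 ± 0.14, adjusted p = 0.0457). Of 12 oxidative stress genes 1 fell in each window, on days 8 to 39 SLC7A11, the cystine transporter (-0.34 ± 0.10). None of the 12 passed on days 8 to 39 without the library of day 10, 15, 21 or 39. Of 21 p53 targets CCNG1 fell early (-0.12 ± 0.04) and TNFRSF10B, a death receptor, late (-0.42 ± 0.12), 1 gene in each window, and the early count was 0 without the library of day 1, 2, 3 or 4. The late count was 0 without the library of day 10, 15 or 21.

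Against the 17 other toxic compounds sampled on all 11 days, 0% of the genes tested passed, 0 of 15247, and 16 had an unadjusted p under 0.05. SNX15 had 54.6 ± 10.6 TPM in Thalidomide libraries, and its difference from the other toxic compounds was 0.35 ± 0.08 (limma, p = 2.8e-05, adjusted p = 0.426). It was the single gene that passed with libraries centred on their median (0.39, adjusted p = 0.0332). The same held with the length trend as a covariate (0.37, adjusted p = 0.0298) and with no compound block (0.35, adjusted p = 1.07e-05). The fit with no block treats wells of the same compound as unrelated, although their correlation was 0.161, so its p-value is no separate support. Of the 32 genes called against the non-toxic compounds without days 15 and 21, 27 had the same sign here and 3 had an unadjusted p under 0.05, SNX15, NKAIN4 (-0.28 ± 0.12) and INPP5J (-0.39 ± 0.18). The Thalidomide libraries that chose these genes are also in this comparison, so neither the shared signs nor those p-values are separate evidence. BCAN differed by 0.09 ± 0.19 and SYN3 by -0.21 ± 0.25.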

How the data were processed

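Per the labels, cultures were lysed on the plate, RNA was purified with a 96-well kit and TruSeq libraries were made. RSEM 1.2.1, Bowtie 0.12.8, CASAVA 1.8.2 and hg19 are named, per the submitters' processing notes. The values are TPM as the authors deposited them, 1 column per library, 19084 genes by 414 libraries. Without read counts no count model was fitted, and depth is unknown. Groups, days and dose came from the labels. No other column was identical to a Thalidomide column.

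Genes that reached 1 TPM in 5 or more of the Thalidomide and non-toxic libraries were tested with limma 3.58.1 (R 4.3.3) on log2(TPM + 1), with day as a factor, an intensity trend and compound as a random block (correlation 0.0229, and 0.161 against the other toxic compounds). The later minus earlier difference was an interaction term. Adjusted p-values are Benjamini-Hochberg over all tested genes. For the length trend, longest GENCODE 29 transcripts matched 9557 of 10277 genes averaging 10 TPM or more (93.0%). The fits were tested on simulated data. Tables and plots used Python 3.11.15, pandas 2.3.3 and matplotlib 3.10.9.

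SNX15 and SYN3 are always named. Otherwise named are the 10 largest rises and falls per comparison among called genes that averaged 1 TPM or more in one of the groups and kept their sign on 80% of days or more, the 10 lowest p-values where under 5 genes were called, and called or abundant members of gene lists. Not every such gene is described. For genes named by size that agreement of sign was required, so their day counts against the non-toxic mean are no separate evidence. The members, lists and tests were chosen with earlier results of these data known. The neighbours of SNX15 and SYN3 were the tested genes of the same chromosome with the smallest gaps by RefSeq coordinates. Some genes are not reported here.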

Additional observations from a re-analysis of the deposited data

Results flagged for a closer look

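In 10 cases the deviation of 1 Thalidomide library from the non-toxic mean of its day stood apart from those of the other Thalidomide libraries of its window. These log2 deviations were RHOG on day 21 (1.04), CMTM1 on day 21 (-3.05), STOX2 on day 3 (-0.23), PRPH on day 27 (2.21) and RGPD8 on day 1 (-2.08), and RAB30 on day 3 (-0.40), PPIB on day 21 (0.69), RPS25 on day 6 (0.037), RPS25 on day 21 (0.34) and RPL7A on day 4 (0.15). A gap of this size is found by chance in about 1 group in 20. Every named gene was looked at in both windows, so several such gaps are expected by chance. The values of day 21 belong to the library with the strongest length trend, and its part in them was not tested.

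The difference of Thalidomide from the non-toxic compounds differed between days 8 to 39 and days 1 to 6 for 1503 genes by the interaction test of limma, with an adjusted p under 0.05. Among the named genes the later minus the earlier log2 difference was above 0 for KIAA0408 (2.67), SPHAR (1.43), TEX101 (1.33), HCRT (1.10), FABP6 (1.04), PRPH (0.95), CXorf1 (0.61), IFITM3 (0.59), NEUROG1 (0.57), BCAN (0.35), ADORA1 (0.35), NKAIN4 (0.32), SNX15 (0.31), RHOG (0.30) and H2AFZ (0.16). It was below 0 for GTF2H2C (-1.88), RGPD8 (-1.71), TSSK4 (-1.19), FRRS1L (-1.14), PLCXD2 (-1.11), CMTM1 (-0.96), RAB30 (-0.90), STOX2 (-0.88), PPM1L (-0.86), SYN3 (-0.81), SGK196 (-0.77), IGSF9B (-0.72), IFIT3 (-0.67) and TCN2 (-0.27). With days 15 and 21 left out, the later difference of SNX15 was 0.59, that of SYN3 -0.48, that of FRRS1L -0.40 and that of KIAA0408 1.35, and SNX15 alone of these passed. TSSK4 rose on days 1 to 6 (0.54) and fell on days 8 to 39 (-0.65).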

How the results depend on the processing

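None of the single-gene values counted here changed sign under the alternatives run for it. The balance of counts did: centring turned the later minus earlier difference to 1268 higher and 1256 lower, against 553 and 950. No paired analysis was possible because the labels number no replicates, and day is a term of every fit. With DMSO alone as the reference, 0 genes passed over all days, on days 1 to 6, on days 8 to 39 and without days 15 and 21, and SNX15 (0.34) and SYN3 (-0.75) no longer passed (adjusted p = 0.418 for both). That fit holds 2 libraries a day.

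Counts of called genes moved as follows. Without ibuprofen they were 5629 over all days, 6665 on days 8 to 39 and 709 without days 15 and 21. Without its day 8 library alone they were 5689, 6745 and 719, with 23 on days 8 to 39 without days 15 and 21 and 5282 for the later minus earlier difference. Without libraries of a length trend below -0.1, chosen after the data were seen as was the day 8 exclusion, they were 865 over all days and without days 15 and 21, 31 on days 8 to 39 with or without those days, and 121 for the difference. With no compound block they were 2906 over all days, 2306 on days 8 to 39 and 90 without days 15 and 21. Centring gave 2573 on days 8 to 39, 66 without days 15 and 21 and 2524 for the difference. The length covariate gave 2202, 386, 2429 and, on days 8 to 39 without days 15 and 21, 2. Pseudocounts of 0.1 and 5 gave 944 and 2243 on days 8 to 39. Against the other toxic compounds, centring, the length covariate and no block each gave 1. Fits with no block treat wells of the same compound as unrelated, so their counts are no separate support.

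Leaving out 1 Thalidomide library gave 55 to 6302 over all days, 520 to 1951 on days 1 to 6, 3 to 7680 on days 8 to 39, 5 to 966 without days 15 and 21, 1 to 8 on days 8 to 39 without them, 115 to 6655 for the difference and 0 against the other toxic compounds. SNX15 then lay between 0.31 and 0.39, and SYN3 between -0.79 and -0.57, short of the threshold without day 21 (adjusted p = 0.0768). Of 1737 single-gene values, 1350 kept their side of the threshold, 362 lost it and 25 gained it. The length trend rests on genes of GENCODE 29 symbols, and TPM without counts leave the precision of low genes unknown.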
